A study of Mus musculus with 9 samples.

Results

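The comparison described here sets B16 cells that carry the hairpin shAD4-1 against B16 cells that carry a control hairpin. It takes 6 of the 9 libraries of the series, 3 of each of these groups, and every gene with enough reads to be tested, 13807 of 21676 in the count table. B16 is an established mouse melanoma line, which the labels place under skin and melanoma cells. All groups were grown in DMEM with heat-inactivated fetal bovine serum and antibiotics, and no further treatment is named. The design text calls the hairpin cells knockdown derivatives of the control cells, with 3 biological replicates a group, so each hairpin is represented by 1 derivative line. The remaining 3 libraries carry the hairpin shAD4-2 and appear below only where shAD4-1 is tested against them.

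A short hairpin RNA is transcribed from an integrated vector and processed into a small RNA that lowers the transcript it pairs with. The series title names ADGRL4, an adhesion G protein-coupled receptor best known from endothelial cells, and places it beside Gαs, the G protein subunit that stimulates adenylyl cyclase and cAMP, and YAP1, the growth-promoting coactivator that Hippo kinases restrain. Interferon signalling, which takes up much of what follows, runs from a surface receptor through JAK kinases to STAT and IRF factors, which switch on antiviral effector genes and the machinery that shows peptides on MHC class I.

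The gene counts summed to 31.5 to 36.4 M reads per control library and to 35.8 to 36.9 M per shAD4-1 library. Adgrl4 was not analysed here, so the labels carry no check from the targeted gene. The 7 melanocytic marker genes summed to 11062 to 12680.2 CPM (counts scaled to the size of the library) in control and 9879 to 10092 in shAD4-1 libraries, high in both groups, as the cell type label has it. All 7 were called lower in shAD4-1 cells (log2 fold changes -0.47 to -0.14, median -0.26). Of markers of other cells, 5 endothelial genes summed to 0.585 to 0.697 CPM in control and 0.964 to 1.05 in shAD4-1 libraries, 5 immune genes to 3.20 to 3.74 and 7.07 to 7.86, and 6 fibroblast genes to 47.3 to 54.4 and 62.3 to 66.2. The defining leukocyte genes Ptprc and Cd3e, the endothelial genes Pecam1, Cdh5, Tek and Erg, and the keratinocyte genes Krt10 and Trp63 had at most 10 reads in each of the 6 libraries. The 2 immune markers with enough reads to be tested were both higher in shAD4-1 cells (log2 fold changes 0.53 and 3.97). So was the 1 tested endothelial marker (0.92). Of 4 tested fibroblast markers 3 were higher and 0 lower (range 0.23 to 2.62). Transcripts encoded by mitochondrial DNA made up 2.61, 2.44 and 2.30% of the reads in the control libraries and 3.62, 3.78 and 3.81% in the shAD4-1 libraries, so this share moved with the group in every comparison with control below. It was 3.60, 3.67 and 3.89% in the shAD4-2 libraries, which overlapped those of shAD4-1. With these genes left out of the table, the 399 other named genes all kept their side of the threshold. In whole-culture RNA, fewer cells of a kind and less RNA per cell cannot be told apart. P-values measure the spread between these libraries.

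In edgeR's quasi-likelihood test, 8968 genes (65.0%) differed between shAD4-1 and control cells at a Benjamini-Hochberg adjusted p under 0.05, and 4512 (32.7%) of them were higher and 4456 (32.3%) lower. These shares are the background for every count below. Most changes were small, since 5506 of the called genes (61.4%) changed by less than 1.5-fold. At least 2-fold, 827 genes (5.99%) were higher and 856 (6.20%) lower, at least 4-fold 301 and 212, and at least 16-fold 78 and 53. Of the 78 genes that rose at least 16-fold, 76 stood below 1 CPM in control. Such rises start from near silence. The biological coefficient of variation was 5.15%, and the median log2 fold change over all tested genes was -0.01. The 3 shAD4-1 libraries did not overlap the 3 control libraries for 9391 genes (68.0%). Most genes named below were chosen partly because their groups did not overlap. Statements of no overlap below therefore describe that choice and add no support.

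**Figure D1:**
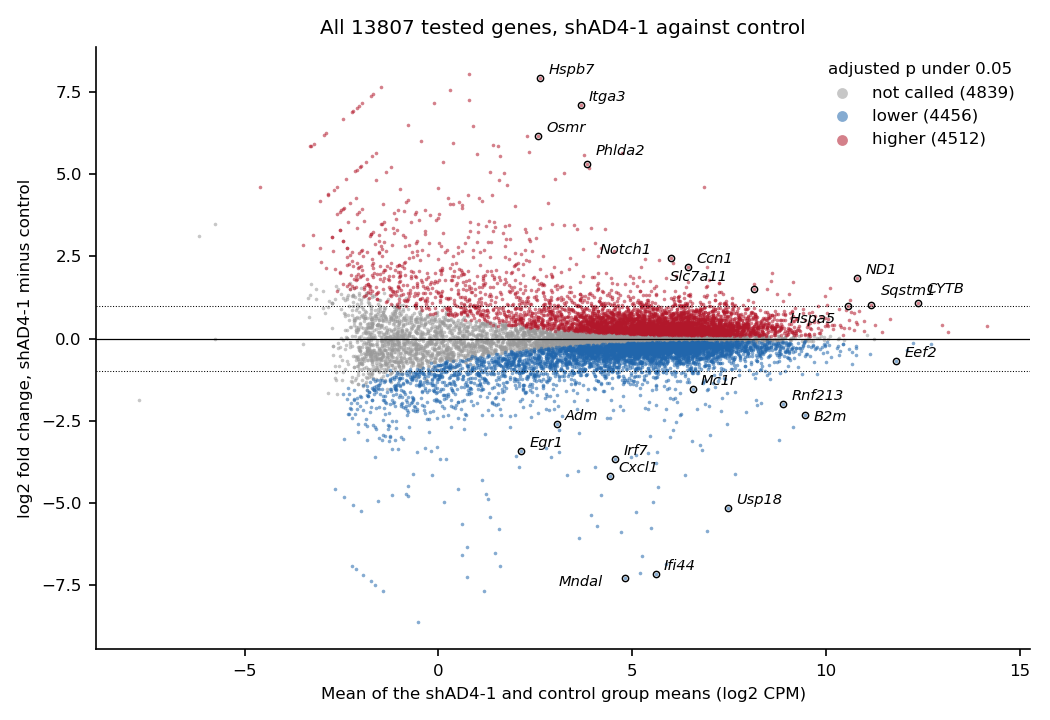
Each point is 1 of the 13807 tested genes, with its mean level in log2 CPM on the x axis and its log2 fold change, shAD4-1 minus control, on the y axis. Red and blue points passed an adjusted p of 0.05, dotted lines mark 2-fold, and the named genes are ringed: the largest rises (Hspb7, Itga3, Osmr) sit left of the abundant transcripts, while Rnf213 and B2m fell from high levels.

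Transcripts that were almost absent from control cells included a surface integrin and a cytokine receptor. Itga3, the integrin alpha-3 subunit that binds laminins, had 5, 10 and 4 reads in the control libraries and 975, 786 and 966 reads in the shAD4-1 libraries, which is 0.181 against 25.3 CPM (log2 fold change 7.10, SE 0.18, adjusted p = 3.48e-16). Osmr, the receptor subunit for oncostatin M, had 4, 7 and 6 reads in control and 409, 432 and 424 reads in shAD4-1 libraries (log2 fold change 6.15, SE 0.20, adjusted p = 1.30e-14). For both genes each shAD4-1 library lay far above each control library, and the size of the fold rests on few control reads. Hspb7, a small heat shock protein, had 5, 0 and 0 reads in control libraries and 457, 458 and 411 reads in shAD4-1 libraries. Others of the 15 largest rises among genes of at least 5 CPM were Slc38a3, a glutamine transporter, at 1.05 ± 0.317 CPM in control and 52.3 ± 2.12 CPM in shAD4-1 cells (mean ± SD, n = 3), Prkg2, a cGMP-dependent kinase, at 0.542 ± 0.0553 and 26.2 ± 1.70 CPM, and Hif3a, a hypoxia-inducible factor subunit, at 0.524 ± 0.272 and 15.5 ± 0.619 CPM. Flrt1, a transmembrane protein with leucine-rich repeats, rose from 0.194 ± 0.0850 to 6.28 ± 0.475 CPM and the tetraspanin Tspan2 from 0.195 ± 0.130 to 9.89 ± 0.884 CPM.

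The 15 largest falls under the same minimum started from expressed transcripts, as a minimum of 5 CPM in the higher group requires. Trim30a, an interferon-induced TRIM protein of mice, stood at 261, 236 and 221 CPM in control libraries and 3.92, 4.85 and 3.66 CPM in shAD4-1 libraries (log2 fold change -5.85, SE 0.087, adjusted p = 1.28e-19). Ifi203 and Mndal, DNA-binding proteins of the p200 family, went from 116 ± 19.1 to 1.00 ± 0.0857 CPM and from 56.1 ± 6.29 to 0.362 ± 0.00601 CPM. Trim12a, another TRIM protein, went from 33.7 ± 4.57 to 0.650 ± 0.108 CPM, and Oas2, an oligoadenylate synthetase that activates RNase L, from 30.0 ± 4.38 to 0.735 ± 0.210 CPM. In each of these genes the groups were separated without overlap. The TRIM and p200 genes among them belong to families with close copies. How reads shared among copies were counted is not known from the sources used here, which leaves the separate folds of these genes uncertain.

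Measured by reads gained or lost rather than by fold, other genes led. This ranking took only genes that met the same minimum, did not overlap between groups and changed at least 1.5-fold. Sqstm1, the autophagy receptor p62, gained the most of the nuclear-encoded genes so ranked, at 1427, 1519.7 and 1573 CPM in control libraries and 3105, 3067 and 2976 CPM in shAD4-1 libraries (log2 fold change 1.02, SE 0.038, adjusted p = 9.03e-14). Aldh1l2, a mitochondrial folate enzyme, stood at 959, 967 and 938 CPM and 2151, 2199 and 2135 CPM. The 12 largest gains also held 4 chaperones: Hspa9 of mitochondria rose 1.77-fold, Hspa8 of the cytosol 1.82-fold, and Hspa5 and Hsp90b1 of the endoplasmic reticulum (ER) 1.97 and 1.70-fold. The nucleolar protein Ncl and 5 mitochondrially encoded genes made up the rest. The largest loss in this ranking was that of Eef2, the factor that moves the ribosome along the message, from 4056, 4541 and 4629 CPM in control libraries to 2781, 2772 and 2706 CPM in shAD4-1 libraries (log2 fold change -0.68, SE 0.045, adjusted p = 2.66e-10). Txnip, an inhibitor of thioredoxin and of glucose uptake, went from 759, 969 and 965 CPM to 423, 435 and 429 CPM, and Rnf213, a large ubiquitin ligase, from 878, 727 and 671 CPM to 197, 192 and 184 CPM. None of these groups overlapped. Others of the 12 largest losses were B2m, Rsad2, H2-D1 and Ifitm3 of the interferon response and the ribosomal proteins Rpl4, Rps14, Rpl32 and Rps6.

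Many interferon-induced genes carry an interferon-stimulated response element near their start, to which a complex of STAT factors and IRF9 binds. Promoter windows from RefSeq (GRCm38.p6, 250 bases before to 50 after the start) were at hand for 10430 of the tested genes and were searched on both strands for a short form of that element, TTTC, 2 bases of any kind and TTTC. It occurred in the windows of 3.46% of all 10430 genes, of 3.65% of those at least 2-fold higher and of 10.2% of those at least 2-fold lower in shAD4-1 cells (56 of 547). Of the 34 interferon effectors with a window 14 held it. The stretches below, each 5′ to 3′ on the strand of the gene and upstream of its start, show it in capitals for 5 named genes that fell. They are shown because they span the pathway from a transcription factor (Stat2) to antiviral effectors (Rsad2, Ifit3), the MHC class I light chain (B2m) and a chemokine (Cxcl10).
Rsad2: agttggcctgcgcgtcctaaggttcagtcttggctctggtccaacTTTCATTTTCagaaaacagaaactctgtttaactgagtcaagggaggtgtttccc
Ifit3: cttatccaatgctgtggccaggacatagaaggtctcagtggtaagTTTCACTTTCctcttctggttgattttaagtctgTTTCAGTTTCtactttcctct
Stat2: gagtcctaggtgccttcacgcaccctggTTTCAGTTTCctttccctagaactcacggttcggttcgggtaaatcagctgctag
B2m: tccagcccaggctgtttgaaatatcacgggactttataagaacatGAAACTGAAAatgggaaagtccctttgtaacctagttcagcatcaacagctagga
Cxcl10: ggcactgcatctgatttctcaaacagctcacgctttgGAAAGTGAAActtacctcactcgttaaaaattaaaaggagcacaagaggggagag
They lie at chr12:26456518-26456617, minus strand (Rsad2), chr19:34583328-34583427, plus strand (Ifit3), chr10:128270248-128270330, plus strand (Stat2), chr2:122147503-122147602, plus strand (B2m) and chr5:92349048-92349139, minus strand (Cxcl10). In Rsad2, Ifit3 and Stat2 the capitals read as the motif itself, and in B2m and Cxcl10 as its reverse complement. The motif began 120, 156, 222, 139 and 213 bases before the start in the order given, and Ifit3 held a further match 122 bases before it. A match of letters is a description and not evidence of binding.

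At the top of the pathway the receptor and kinase genes changed little and in both directions. Of the 11 receptor, kinase and inhibitor genes, 5 were higher and 4 lower (median log2 fold change 0.07), and none changed 2-fold. Ifnar1, a subunit of the type I interferon receptor, rose 1.18-fold and its partner Ifnar2 fell 1.55-fold. Ifngr1, of the type II receptor, rose 1.44-fold, whereas the kinases Jak2 and Tyk2 fell 1.68 and 1.19-fold. Socs3, a feedback inhibitor of JAK signalling, rose from 9.67 ± 0.922 to 14.2 ± 0.729 CPM.

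Below the kinases, 4 factors that carry interferon signals to the nucleus fell. Irf7, which amplifies interferon production, stood at 47.7, 41.9 and 40.8 CPM in control and 3.75, 3.29 and 3.30 CPM in shAD4-1 libraries (log2 fold change -3.65, SE 0.11, adjusted p = 6.07e-15). Stat2 stood at 102, 95.5 and 87.1 CPM and 22.8, 20.9 and 21.2 CPM, Irf9 fell 2.74-fold and Irf1 2.52-fold. The lowest control library was above the highest shAD4-1 library for all 4 of these genes. Stat6, which carries interleukin 4 signals, rose from 61.0 ± 8.71 to 121 ± 0.723 CPM, and Stat5a and Stat5b rose 1.52 and 1.36-fold. Over the 12 tested genes of the STAT and IRF list 5 were higher and 4 lower. The 4 that fell did so at least 2-fold.

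Most sensors of foreign nucleic acid fell. Among 14 tested genes 9 were lower and 1 higher (median -0.69). The RNA helicases that detect viral RNA fell: Ddx58 (RIG-I) from 419.5, 397 and 396 CPM to 87.7, 88.2 and 84.6 CPM, Ifih1 (MDA5) from 112 ± 11.7 to 29.4 ± 2.00 CPM and Dhx58 (LGP2) from 57.4 ± 1.44 to 4.71 ± 0.915 CPM. Ddx60, a helicase linked with RIG-I, fell from 68.2, 69.7 and 60.7 CPM to 1.90, 1.5 and 1.68 CPM (log2 fold change -5.28, SE 0.11, adjusted p = 1.42e-17). The kinase Eif2ak2 (PKR) fell 2.34-fold and the RNA-editing enzyme Adar 1.68-fold. The member that rose was Aim2, a DNA sensor of the inflammasome named after its value was seen, from 0.0945 to 0.602 CPM (log2 fold change 2.62, SE 0.53). Members that did not pass the test included adaptors and a kinase through which such sensors signal: the log2 fold changes of Mavs, Sting1 and Tbk1 were 0.054 (SE 0.058), -0.026 (SE 0.062) and 0.038 (SE 0.053).

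All 44 tested interferon-induced effectors were lower, 39 of them at least 2-fold, with a median log2 fold change of -2.69 and a range from -7.15 to -0.39. The list was chosen with earlier results of these data known, so this unanimity is partly a matter of choice. In the gene ontology term cellular response to interferon-beta, 28 of 36 genes were lower and 5 higher. Rsad2, the antiviral protein viperin, stood at 811, 799.7 and 758 CPM in control libraries and 95.4, 88.8 and 92.9 CPM in shAD4-1 libraries. Ifit3, which binds foreign RNA caps together with its relatives, stood at 392, 375 and 375 CPM and 23.6, 20.4 and 22.6 CPM (log2 fold change -4.10, SE 0.065, adjusted p = 3.82e-19). Usp18, the protease that removes ISG15, stood at 358, 348 and 327 CPM and 8.80, 10.4 and 9.74 CPM (log2 fold change -5.16, SE 0.064, adjusted p = 1.70e-20). Every shAD4-1 library lay below every control library in these genes. Bst2 (tetherin), which holds budding virus at the membrane, fell 6.10-fold and Ifitm3, which blocks entry through endosomes, from 492, 472 and 468 CPM to 119.8, 115 and 116 CPM. The smallest fall was that of Isg20, an exonuclease chosen here as the end of the range, at -0.39. The immune markers given above summed to 3.20 to 3.74 CPM in control and 7.07 to 7.86 CPM in shAD4-1 libraries. Their part in these results was not tested.

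**Figure D2:**
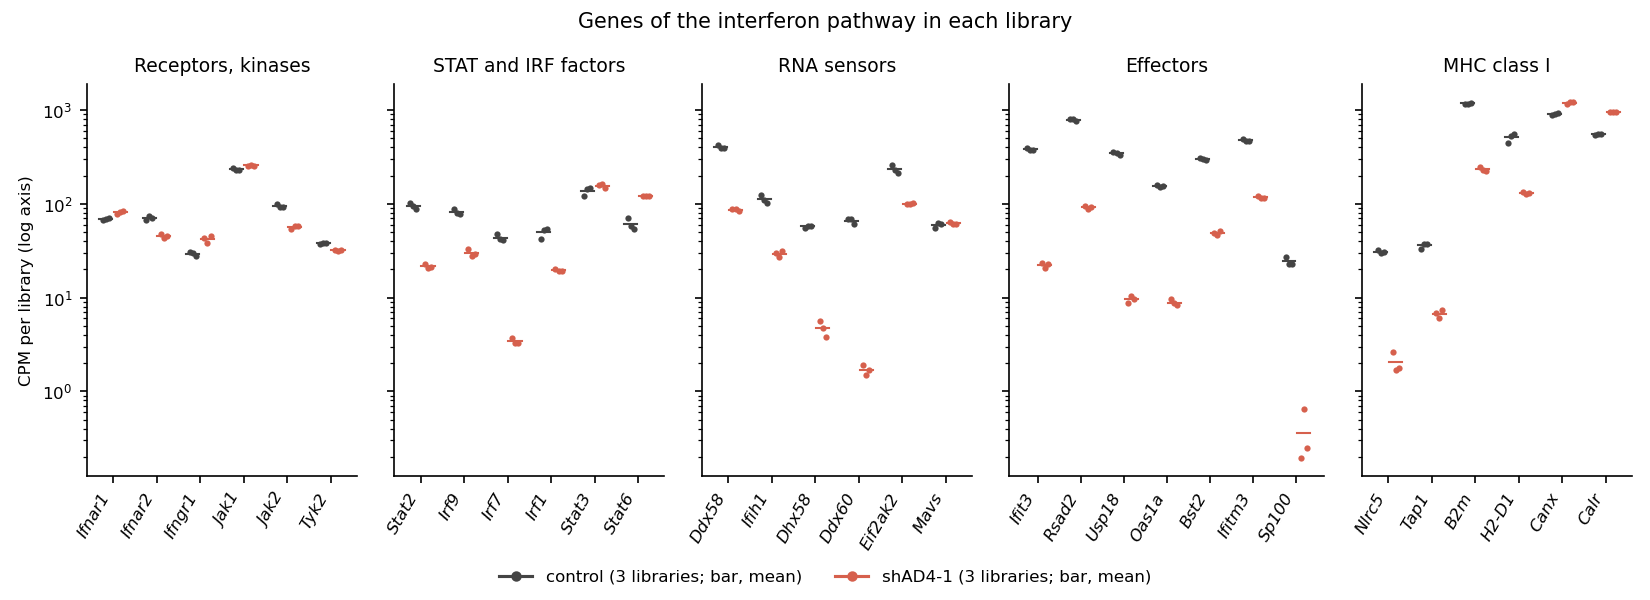
Points give CPM in each library on a log axis, in grey for control and red for shAD4-1, with bars at the group means, for genes ordered from receptor to effector. Receptors and kinases lie close together in both groups, while Irf7, Ddx60, Usp18, Oas1a and Sp100 lie more than 10-fold lower in the shAD4-1 libraries and Canx and Calr slightly higher.

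In MHC class I presentation, 13 of 18 genes were lower and 5 higher (median -1.11). Nlrc5, the activator of class I genes, stood at 32.0, 29.7 and 30.7 CPM in control and 2.65, 1.70 and 1.79 CPM in shAD4-1 libraries (log2 fold change -3.91, SE 0.13, adjusted p = 1.52e-14). Tap1, a subunit of the peptide transporter, stood at 33.2, 37.2 and 37.5 CPM and 6.79, 6.10 and 7.35 CPM. B2m, the shared light chain, stood at 1158, 1169.9 and 1192 CPM and 249, 229.7 and 221 CPM (log2 fold change -2.33, SE 0.042, adjusted p = 2.36e-18), with no overlap in any of these genes. The heavy chains H2-D1 and H2-Q4, which have close paralogs, fell 3.91 and 2.85-fold. Of the 5 members that rose, 3 serve protein folding in the ER more widely: Calr rose from 544, 552 and 558 CPM to 949, 951 and 946 CPM, and Canx and Pdia3 rose 1.32 and 1.22-fold. The other two, named after their values were seen, were Tapbpl, a relative of tapasin, and Psme1, a subunit of a proteasome activator, which rose 1.58 and 1.33-fold.

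Inflammatory genes were mostly lower, with 10 of 17 members of the NF-kB and cytokine list lower and 3 higher (median -0.83). Cxcl1, a chemokine for neutrophils, stood at 44.2, 40.1 and 38.7 CPM in control and 2.01, 2.33 and 2.39 CPM in shAD4-1 libraries (log2 fold change -4.19, SE 0.10, adjusted p = 2.13e-16). Cxcl10, a chemokine for T cells, stood at 265, 259 and 248 CPM and 57.1, 58.0 and 52.4 CPM, and Csf1, the macrophage growth factor, at 229.7, 279 and 279 CPM and 82.4, 86.1 and 82.4 CPM. All 3 were separated without overlap, as the choice of named genes required. The inhibitors Nfkbiz and Nfkbie fell 3.01 and 1.95-fold, whereas the subunits Rela and Nfkb1 rose 1.30 and 1.37-fold. The interleukin 6 family went the other way: 7 of 11 genes were higher and 1 lower (median 0.58). Beside Osmr, the cytokine Il11 went from 0.431, 0.198 and 0.161 CPM in control libraries to 6.48, 6.18 and 6.96 CPM in shAD4-1 libraries (log2 fold change 4.65, SE 0.24, adjusted p = 6.29e-12), Clcf1, another ligand of the family, rose from 2.94 ± 0.216 to 9.47 ± 0.279 CPM, and the receptor subunit Lifr rose 2.11-fold. The shared receptor Il6st rose 1.26-fold.

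Genes of protein folding in the ER rose. 20 of 25 genes of ER folding and degradation were higher and 4 lower (median 0.37). Xbp1, whose spliced form drives the unfolded protein response, stood at 60.4, 53.4 and 56.3 CPM in control and 190.2, 193 and 198 CPM in shAD4-1 libraries (log2 fold change 1.77, SE 0.045, adjusted p = 2.79e-16). Hspa5 (BiP), the main lumenal chaperone, stood at 1040.0, 1016 and 981 CPM and 1958, 1977 and 2056 CPM (log2 fold change 0.98, SE 0.037, adjusted p = 9.57e-14). Herpud1, which helps clear misfolded proteins, stood at 90.8, 86.7 and 83.3 CPM and 197, 192 and 195 CPM. The groups did not overlap. Hsp90b1 and Pdia6 rose 1.70 and 1.58-fold. Derl1 and Edem1, of the degradation route, and the sensor kinase Eif2ak3 (PERK) fell 1.29, 1.14 and 1.23-fold.

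The ER stress response element, CCAAT, 9 bases of any kind and CCACG, is bound by ATF6 and partners. Searched on both strands, it lay in the windows of 19 of the 10430 genes (0.182%). Of the 575 genes at least 2-fold higher and the 547 at least 2-fold lower 0 held it. At any fold, 15 of the 19 were higher, 2 lower and 2 not called in shAD4-1 cells, with a median log2 fold change of 0.5. Of the 20 ER folding and degradation genes with a window 7 held it. The upstream stretches of 4 of these, each a gene named above, are shown with the element in capitals, 5′ to 3′ on the strand of the gene.
Hspa5: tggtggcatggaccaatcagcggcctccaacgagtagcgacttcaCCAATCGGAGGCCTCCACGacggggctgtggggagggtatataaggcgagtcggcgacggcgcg
Hsp90b1: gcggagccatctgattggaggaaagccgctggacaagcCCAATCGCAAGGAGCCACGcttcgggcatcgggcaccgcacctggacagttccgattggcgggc
Pdia6: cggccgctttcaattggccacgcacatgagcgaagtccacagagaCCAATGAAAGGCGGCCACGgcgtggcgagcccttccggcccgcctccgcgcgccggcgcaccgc
Canx: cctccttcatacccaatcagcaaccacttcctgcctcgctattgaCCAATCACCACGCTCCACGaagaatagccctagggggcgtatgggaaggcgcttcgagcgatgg
They lie at chr2:34771980-34772088, plus strand (Hspa5), chr10:86705593-86705694, minus strand (Hsp90b1), chr12:17266446-17266554, plus strand (Pdia6) and chr11:50325755-50325863, minus strand (Canx) of GRCm38.p6, and the element began 65, 212, 98 and 145 bases before the start. The window of Hsp90b1 held 2 matches, of which the one farther from the start is shown.

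The integrated stress response, in which ATF4 drives amino acid synthesis and uptake, had 23 of 28 genes higher and 5 lower (median 0.64). Slc7a11, the cystine importer, stood at 162, 147 and 131 CPM in control and 401, 406 and 431 CPM in shAD4-1 libraries (log2 fold change 1.49, SE 0.062, adjusted p = 3.84e-13). The transcription factors Atf3 and Atf5 stood at 60.1 ± 6.31 and 187 ± 24.7 CPM in control and 182 ± 5.55 and 526 ± 16.2 CPM in shAD4-1 cells. Psph and Phgdh, enzymes of serine synthesis, rose 2.06 and 1.66-fold. Members that went the other way were Ddit3 (CHOP), a pro-death factor, which fell 1.37-fold, and the proline enzymes Pycr1 and Aldh18a1, which fell 1.31 and 1.15-fold. Atf4 itself, named here after its value was seen, had a log2 fold change of 0.11 (SE 0.038). The cytosolic aminoacyl-tRNA synthetases did not move together, with 9 of 20 higher and 6 lower (median 0.07). Of amino acid transporters 11 of 23 were higher and 9 lower, with Slc38a2, a glutamine and alanine importer, at 328, 286 and 275 CPM in control and 652, 659.8 and 658 CPM in shAD4-1 libraries.

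In the heat shock list, which holds chaperones of the cytosol and mitochondria and the factors Hsf1 and Hsf2, 11 of 16 genes were higher and 2 lower (median 0.46). Hsph1, a nucleotide exchange factor for Hsp70, stood at 80.1, 66.1 and 64.6 CPM and 166, 171 and 170.1 CPM in control and shAD4-1 libraries. Hspe1 and Hspd1, the paired mitochondrial chaperonins, rose 1.66 and 1.48-fold, and the small heat shock protein Hspb8 fell 1.49-fold. In the NRF2 and glutathione list, genes of the oxidative stress response, 17 of 27 were higher and 7 lower (median 0.31). Osgin1, an oxidative stress-induced growth inhibitor, rose 2.49-fold and mitochondrial superoxide dismutase Sod2 stood at 53.9, 54.4 and 60.6 CPM in control and 108, 104 and 109 CPM in shAD4-1 libraries. Gsta4, a glutathione transferase for lipid aldehydes, went against the list, from 12.9, 14.1 and 14.4 CPM to 0.855, 1.79 and 0.798 CPM (log2 fold change -3.59, SE 0.24, adjusted p = 3.52e-10), and Mgst1, a microsomal transferase, fell 1.86-fold.

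**Figure D3:**
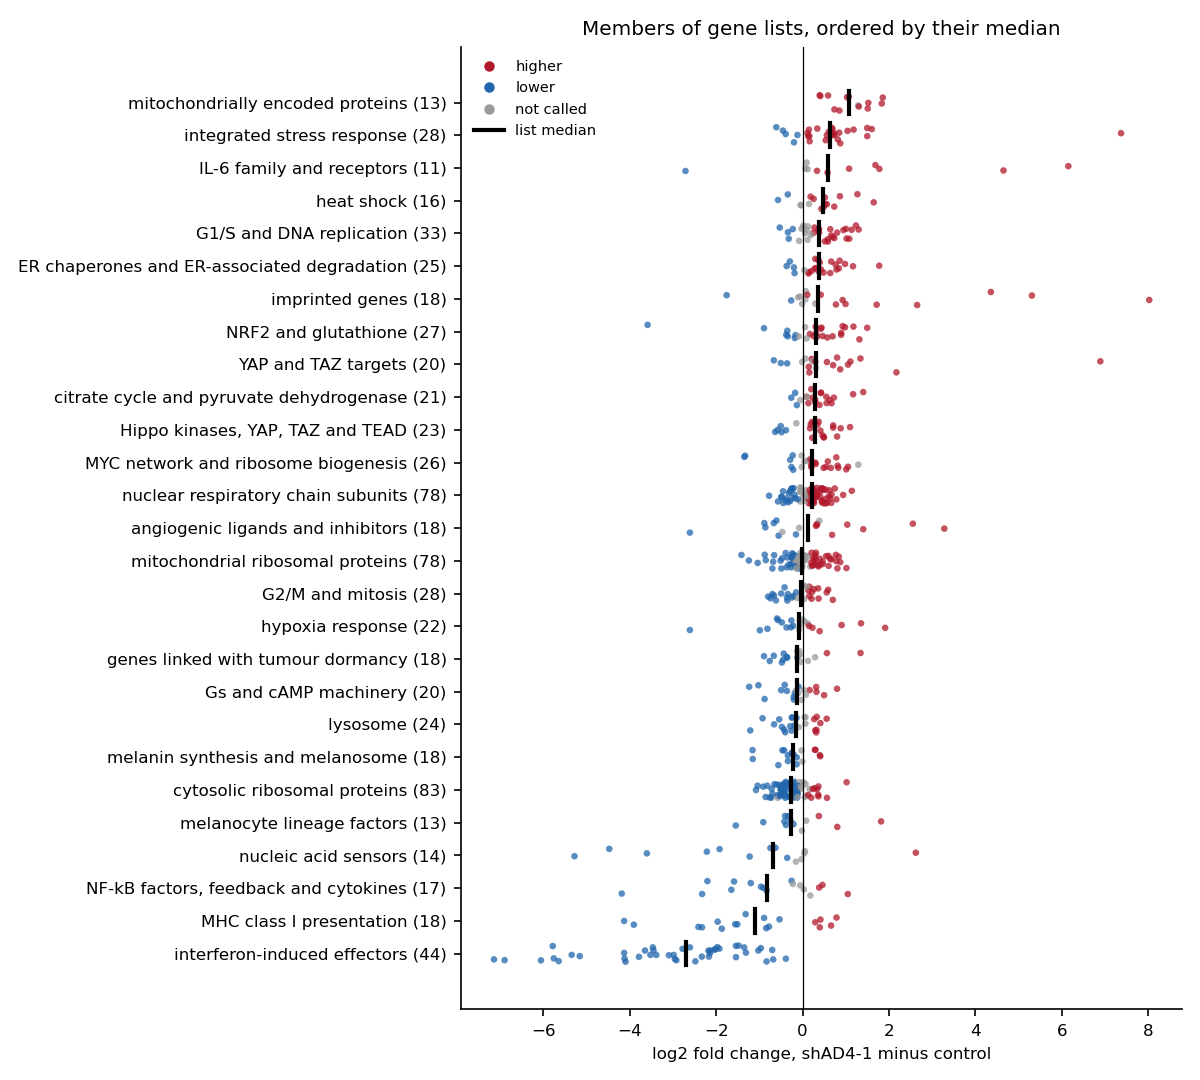
Each point is a tested member of a gene list, placed by its log2 fold change, shAD4-1 minus control, and coloured by its call; black bars are list medians and numbers in brackets are tested members. The interferon effectors lie wholly left of 0 (median -2.69), and the mitochondrially encoded genes have the highest median shown (1.07).

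Respiratory chain transcripts of both genomes were more often higher than lower. Of the 13 proteins encoded by mitochondrial DNA 12 were higher and none lower (median 1.07). ND1, a complex I subunit, stood at 1089, 675 and 592 CPM in control and 2623, 2867 and 2887 CPM in shAD4-1 libraries, and CYTB, of complex III, at 4639, 2966 and 2605 CPM and 7064, 7241 and 7108 CPM. COX1, of complex IV, rose less, 1.31-fold. All of these genes share the strands they are transcribed from, and they are the genes that make up the mitochondrial share of reads given above. Of the nuclear subunits 47 of 78 were higher and 20 lower (median 0.21). By complex, 20 of 37 genes of complex I were higher and 11 lower, and 1 of 4 of complex II higher and 1 lower. Complex III had 8 of 9 higher and 0 lower, complex IV 6 of 11 higher and 4 lower, and complex V, the ATP synthase, 12 of 17 higher and 4 lower. Ndufv2 rose 1.91-fold and Uqcrh 1.68-fold, while Cox5a and Cox7a2 fell 1.72 and 1.49-fold. Mitochondrial ribosomal proteins were balanced, with 28 of 78 higher and 26 lower (median -0.02).

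Enzymes that feed the chain rose as well. Of 21 genes of the citrate cycle and pyruvate dehydrogenase 16 were higher and 3 lower (median 0.29). Pcx, pyruvate carboxylase, stood at 9.23, 10.9 and 11.1 CPM in control and 27.2, 28.8 and 26.7 CPM in shAD4-1 libraries (log2 fold change 1.40, SE 0.084, adjusted p = 5.36e-11), and Fh1, fumarase, at 79.9, 88.8 and 89.1 CPM and 196, 192 and 191 CPM. Cs, citrate synthase, rose 1.65-fold. Ppargc1a, the coactivator of mitochondrial genes, stood at 83.9, 84.2 and 78.6 CPM and 220.2, 219 and 223 CPM (log2 fold change 1.42, SE 0.042, adjusted p = 2.18e-15). In glycolysis 10 of 21 genes were higher and 6 lower (median 0.10). There the neuronal enolase Eno2 rose 2.96-fold, Tpi1 2.03-fold and Pfkfb3, which sets the pace of glycolysis, 2.05-fold, whereas the abundant enzymes Ldha, Pkm and Gapdh fell 1.49, 1.39 and 1.36-fold.

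The protein synthesis machinery divided. Cytosolic ribosomal proteins were lower for 60 of 83 genes and higher for 10 (median -0.27). Rpl15, of the large subunit, stood at 414, 407 and 424 CPM in control and 219, 217 and 224 CPM in shAD4-1 libraries, Rps6, the S6 kinase substrate, at 1008, 1035 and 1029.9 CPM and 632, 611 and 651 CPM, and Rps14 fell 2.11-fold. Rpl7l1, a paralog that takes part in ribosome assembly, rose 2.02-fold and Rpl10 1.48-fold. In the list of MYC partners and ribosome biogenesis genes 15 of 26 were higher and 6 lower (median 0.21). Myc itself stood at 23.5, 19.8 and 18.8 CPM in control and 43.8, 43.1 and 41.5 CPM in shAD4-1 libraries (log2 fold change 1.05, SE 0.072, adjusted p = 4.27e-10), and Ncl, Nop58 and Nop56, proteins of the nucleolus, rose 1.75, 1.77 and 1.72-fold. Mxd3 and Mxd4, MAX partners that oppose MYC, fell 2.55 and 2.52-fold, while Mnt, of the same kind, rose 2.01-fold. Splicing factors of the SR and hnRNP families were higher for 18 of 30 genes and lower for 6 (median 0.25), with Hnrnpa2b1 up 1.70-fold and Srsf3 down 1.73-fold. Proteasome subunits were mixed, 13 of 34 higher and 15 lower.

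The Gαs and cAMP genes that the series title points to were lower more often than higher, 10 against 5 of 20 (median -0.13). Gnas, which encodes Gαs, stood at 1387, 1518 and 1561 CPM in control and 1179.8, 1144 and 1141 CPM in shAD4-1 libraries (log2 fold change -0.37, SE 0.04, adjusted p = 2.61e-07). Prkaca, the catalytic subunit of protein kinase A, stood at 113, 117 and 117 CPM and 82.7, 83.1 and 80.0 CPM and its regulatory subunit Prkar2b at 43.6, 46.1 and 45.9 CPM and 20.7, 22.9 and 23.1 CPM. The groups did not overlap for any of these. Pde8a, a cAMP phosphodiesterase, fell 1.84-fold, while the cyclases Adcy3 and Adcy6 rose 1.41 and 1.25-fold and the mitochondrial kinase anchor Akap1 1.74-fold. CREB factors and targets had 7 of 19 higher and 5 lower. Nr4a2, an early nuclear receptor, fell 2.15-fold, the cAMP-responsive repressor Crem 1.49-fold, and the phosphatase Dusp1 rose 2.01-fold. The cAMP response element, searched by its 8-base palindrome on both strands, lay in the windows of 3.52% of all genes, 2.26% of 2-fold risen and 2.93% of 2-fold fallen genes. Of the other adhesion G protein-coupled receptors tested 3 of 9 were higher and 5 lower. Adgrl2, a close relative of the targeted receptor, stood at 167, 177 and 181 CPM in control and 255, 254 and 262 CPM in shAD4-1 libraries, and Adgrl1 fell 1.16-fold.

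Genes of the Hippo pathway were higher for 17 of 23 members and lower for 5 (median 0.29), which took in kinases that restrain YAP as well as its partners. Yap1 stood at 171, 155 and 158 CPM in control and 207, 206 and 211 CPM in shAD4-1 libraries (log2 fold change 0.37, SE 0.04, adjusted p = 2.20e-07). The kinases Lats2 and Stk4 rose 1.74 and 1.33-fold and the TEAD cofactor Vgll3 2.14-fold, whereas the scaffold Sav1 and the phosphatase Ptpn14 fell 1.55 and 1.42-fold. Of 20 YAP and TAZ targets 13 were higher and 3 lower (median 0.30). Ccn1, a secreted matrix protein, stood at 29.4, 33.2 and 31.8 CPM and 143, 137 and 145 CPM (log2 fold change 2.17, SE 0.055, adjusted p = 2.68e-16), Ccn2, its relative, at 2.25, 1.16 and 1.88 CPM and 3.83, 3.74 and 3.77 CPM, and Crim1 rose 2.53-fold. Each shAD4-1 library was above each control library. Ankrd1, a sarcomere and nuclear protein, had no read in the control libraries and 46 reads in the shAD4-1 libraries, at least 14.9-fold higher when 3 reads over the control group are taken as the floor. The targets Thbs1 and Tgfb2 fell 1.59 and 1.28-fold. The letters GGAATG, the core of the TEAD site, lay in the windows of 14.3% of all, 18.3% of 2-fold risen and 13.3% of 2-fold fallen genes.

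Secreted regulators of blood vessels moved in both directions, 8 of 18 higher and 7 lower (median 0.11). Vegfa, the main endothelial growth factor, stood at 243, 274 and 272 CPM in control and 345, 326 and 324 CPM in shAD4-1 libraries (log2 fold change 0.33, SE 0.044, adjusted p = 2.56e-06). Adm, the vasodilator adrenomedullin, stood at 13.8, 15.6 and 13.2 CPM and 3.06, 2.33 and 1.60 CPM (log2 fold change -2.61, SE 0.19, adjusted p = 6.41e-10), and Vegfc, which acts on lymphatic vessels, at 15.4, 15.1 and 12.9 CPM and 7.67, 8.11 and 8.09 CPM. Vegfa thus lay higher, and Adm and Vegfc lower, in every shAD4-1 library than in any control library. Pdgfa, a growth factor for mesenchymal cells, rose 2.05-fold and the heparin-binding ligand Hbegf 1.60-fold, while the inhibitor Thbs1 fell 1.59-fold. Of 22 hypoxia genes 6 were higher and 10 lower (median -0.08). Epas1 (HIF-2α) stood at 3.51, 3.28 and 2.89 CPM and 11.5, 12.1 and 12.7 CPM (log2 fold change 1.91, SE 0.12, adjusted p = 7.44e-11) and the oxygen sensor Egln3 rose 2.55-fold, whereas Bnip3 and Higd1a, mitochondrial targets of HIF, fell 1.76 and 1.40-fold. Endothelial markers summed to about 1 CPM or less in each library, as given above.

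Genes that have been linked with tumour dormancy were lower for 9 of 18 and higher for 2 (median -0.13). Dyrk1b, a kinase of quiescence, fell 1.86-fold, the clock repressor Bhlhe40 1.70-fold and Mapk14 (p38α) 1.40-fold, and Timp3, an inhibitor of metalloproteases, stood at 281, 305 and 302 CPM in control and 746, 747 and 753 CPM in shAD4-1 libraries. The cell cycle inhibitor Cdkn1a (p21) was nearly level at 517, 553 and 569 CPM and 513, 493 and 498 CPM (log2 fold change -0.12, SE 0.039, adjusted p = 0.00944). Replication genes rose, 20 of 33 higher and 4 lower (median 0.38): the licensing factor Cdc6 stood at 7.97, 8.35 and 7.69 CPM and 18.2, 21.0 and 19.7 CPM, cyclin D1 (Ccnd1) at 145, 111 and 113 CPM and 255, 265 and 259 CPM, and the helicase subunit Mcm4 rose 2.19-fold. Mitotic genes did not follow, 11 of 28 higher and 13 lower (median -0.05). The proliferation marker Mki67 stood at 261, 249 and 243 CPM and 144, 147 and 142 CPM (log2 fold change -0.80, SE 0.038, adjusted p = 2.17e-12), Aurkb and Ccnb2 fell 1.58 and 1.62-fold, and Ccnb1 and Dlgap5 rose 1.47 and 1.62-fold. Among p53 targets 9 of 22 were higher and 7 lower, with the receptor Eda2r up 4.65-fold, Mdm2, the p53 ligase, up 2.04-fold and the BH3 protein Bbc3 (PUMA) down 1.45-fold.

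Genes of the melanocyte pigment programme were more often lower than higher. Of 18 melanin and melanosome genes 12 were lower and 4 higher (median -0.22), and of 13 lineage genes 8 were lower and 3 higher (median -0.28). The summed level of the melanin and melanosome genes overlapped between the groups, at 18828 to 21399.6 CPM in control and 20040.2 to 20538 CPM in shAD4-1 libraries. Mc1r, the melanocortin receptor that couples to Gαs, stood at 142, 141 and 136 CPM in control and 47.2, 48.9 and 47.4 CPM in shAD4-1 libraries (log2 fold change -1.55, SE 0.049, adjusted p = 7.20e-15). Mitf, the master factor of the lineage, stood at 172, 127 and 119 CPM and 105, 103 and 104 CPM (log2 fold change -0.42, SE 0.089, adjusted p = 0.000397). Trpm1, a melanocyte channel gene, stood at 73.2, 62.6 and 66.2 CPM and 30.6, 30.9 and 29.1 CPM. In all 3 genes every shAD4-1 library lay below every control library. Tyr, the rate-limiting enzyme of melanin synthesis, fell 1.38-fold and the neuregulin receptor Erbb3 1.88-fold, while Pax3, a factor of melanocyte precursors, rose 1.74-fold and the melanosome glycoprotein Gpnmb 1.32-fold. Of 13 genes of the switch toward a mesenchymal melanoma state 7 were higher and none lower (median 0.29). Fn1, fibronectin, stood at 204, 251 and 260.4 CPM and 628, 616 and 593 CPM (log2 fold change 1.36, SE 0.064, adjusted p = 2.21e-12), and the receptors Ngfr and Axl rose 1.89 and 1.48-fold. Zeb1, a factor of the switch named after its value was seen, did not pass the test, at a log2 fold change of -0.34 (SE 0.40).

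Adhesion and matrix genes changed beyond Itga3. Itga5, the fibronectin receptor subunit, stood at 40.5, 47.8 and 45.3 CPM in control and 115, 117 and 116 CPM in shAD4-1 libraries (log2 fold change 1.38, SE 0.051, adjusted p = 5.98e-14) and the laminin receptor subunit Itga7 rose 2.13-fold, whereas Itga1 and Itga4 fell 1.59 and 1.41-fold. Over the 18 integrin genes 7 were higher and 4 lower. Of 17 collagen, laminin and basement membrane genes 10 were higher and 4 lower (median 0.20), with the collagen Col5a1 up 1.74-fold and perlecan (Hspg2) up 1.67-fold, and Col4a2 and Lama4 of vessel basement membranes down 1.95 and 1.65-fold. In the protease list 12 of 22 were higher and 6 lower (median 0.41). The secreted serine protease Htra3 had 15, 27 and 40 reads in control and 1089, 983 and 1006 reads in shAD4-1 libraries, and Plat, tissue plasminogen activator, fell from 6.99, 8.12 and 8.26 CPM to 4.11, 2.69 and 2.92 CPM. Of the actin cytoskeleton, the focal adhesion protein Zyx and the calponin Cnn2 rose 2.08 and 2.28-fold and focal adhesion kinase (Ptk2) fell 1.42-fold. The fibroblast marker sum, which includes collagen genes, was also higher in shAD4-1 libraries, as given above, and its part in these results was not tested.

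Among signalling pathways that steer cell fate, single genes stood out rather than whole lists. Notch1 stood at 20, 19 and 19.8 CPM in control and 109, 108 and 105 CPM in shAD4-1 libraries (log2 fold change 2.45, SE 0.051, adjusted p = 1.95e-17), a rise of 5.48-fold without overlap, while 3 of 13 Notch pathway genes were higher and 3 lower in all and Hes6 fell 2.01-fold. Egr1, an immediate early factor, stood at 6.99, 8.52 and 8.58 CPM and 0.469, 0.822 and 0.963 CPM (log2 fold change -3.41, SE 0.23, adjusted p = 3.62e-10). The ERK phosphatase Dusp6 rose 2.41-fold and the ETS factor Etv1 fell 2.29-fold, in a list with 6 of 22 higher and 4 lower. Tgfb1 stood at 19.5, 27.0 and 23.1 CPM and 52.3, 50.4 and 48.8 CPM, and 10 of 21 TGF-beta and BMP genes were higher and 6 lower. Of the Wnt list 8 of 17 were higher and 6 lower, with the receptor Fzd6 up 2.25-fold and Znrf3, a ligase that clears such receptors, up 1.94-fold.

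Imprinted genes, expressed from the copy of 1 parent, included some of the largest rises. Of 18 tested genes 10 were higher and 2 lower (median 0.36). Phlda2, which limits placental growth, had 22, 19 and 33 reads in control and 1014, 971 and 1032 reads in shAD4-1 libraries (log2 fold change 5.31, SE 0.13, adjusted p = 1.32e-16). Slc22a18, a transporter beside it, stood at 6.19, 6.74 and 5.95 CPM and 40.3, 40.8 and 37.4 CPM (log2 fold change 2.65, SE 0.074, adjusted p = 1.05e-15), and Plagl1, a zinc finger factor on another chromosome, at 298, 247 and 249.5 CPM and 844, 890.4 and 869.8 CPM. None of these groups overlapped. Mest, of chromosome 6, went the other way, from 11.2, 10.6 and 10.3 CPM to 4.08, 2.78 and 2.59 CPM.

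Several of these genes are neighbours on chromosome 7, in the order of the RefSeq table of GRCm38.p6. The genes from H19 to Osbpl5 and the nearest ones on either side were then taken in that order, a set chosen after the values were seen. H19, a noncoding RNA, had 1 read in all of the control group and 368 in the shAD4-1 group, that is, 359 times as many per scaled library (exact 95% interval from counting, 64.0 to 14210.0). Trpm5 had 4 and 395 reads and Cdkn1c, a cyclin-dependent kinase inhibitor, 25 and 534. Tnnt3, a troponin, and Lsp1, a leukocyte actin-binding protein, which lie outside the stretch from H19 to Osbpl5, had 2 and 69 and 59 and 1971 reads. The well-expressed neighbours Tssc4, Kcnq1ot1 and Nap1l4 were not called, at log2 fold changes of 0.074, 0.063 and -0.012, and Cd81, a tetraspanin, rose 1.70-fold. The rises were thus interspersed with genes that did not pass the test. Dlk1, Rtl1 and Rian of the imprinted region on chromosome 12 had too few reads to be tested, none in control and 15, 22 and 19 in shAD4-1 libraries, at least 4.87, 7.15 and 6.17-fold higher with the same floor. These intervals and floors cover counting error only. Of 18 genes of DNA methylation and Polycomb 9 were higher and 5 lower, with Tet3, which oxidises methylated cytosine, up 1.97-fold, Tet2 down 1.70-fold and the methyltransferase Dnmt3a up 1.43-fold.

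**Figure D4:**
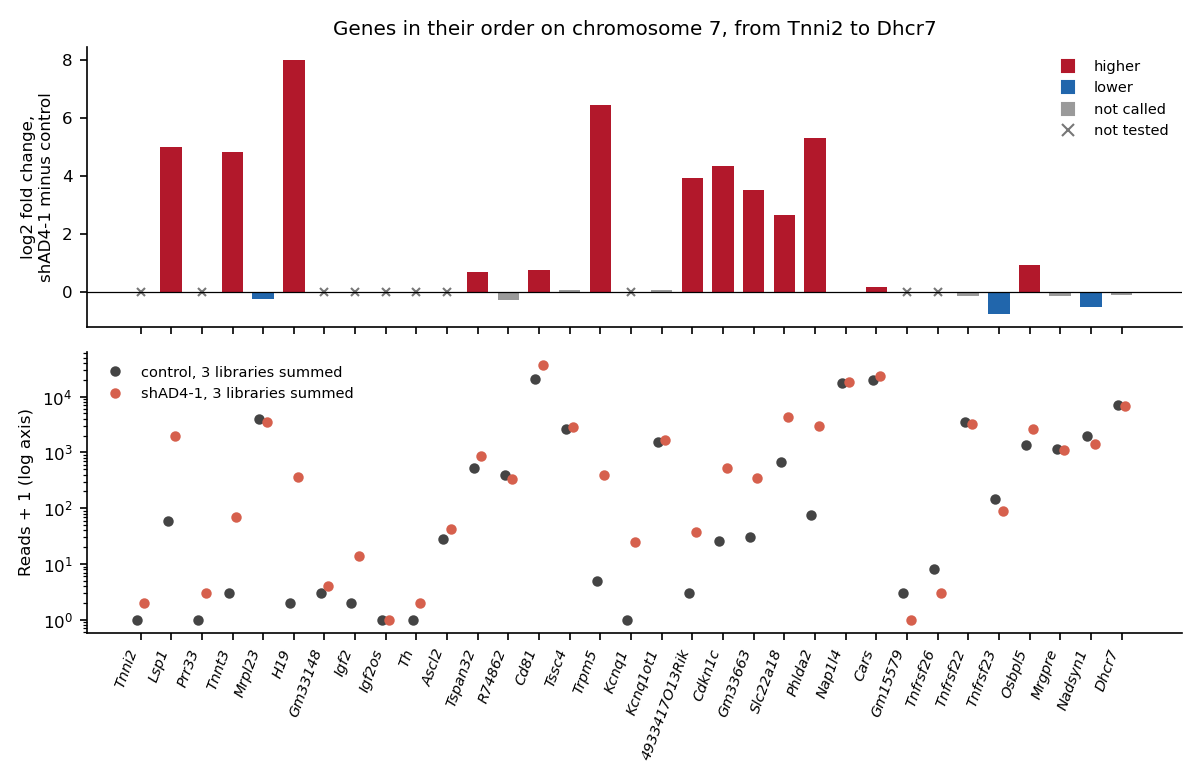
Genes of distal chromosome 7 are placed in their order along the chromosome; the upper panel gives the log2 fold change, shAD4-1 minus control, of tested genes (crosses mark untested ones) and the lower panel the reads summed over the 3 libraries of each group plus 1, on a log axis. H19, Trpm5, Cdkn1c and Phlda2 rose from few control reads, and Nap1l4 and Tssc4 between or beside them stayed level.

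Lipid, lysosome and cell death genes showed changes in single members. In cholesterol synthesis 8 of 22 genes were higher and 7 lower (median -0.02). Insig1, a sterol sensor, stood at 28.7, 25.7 and 24.5 CPM in control and 56.5, 53.9 and 55.4 CPM in shAD4-1 libraries (log2 fold change 1.07, SE 0.06, adjusted p = 2.24e-11), and Hmgcs1, an early enzyme of the route, fell 1.32-fold. In fatty acid synthesis and storage 13 of 22 were higher and 5 lower (median 0.23), with Elovl1 and Fasn up 1.53 and 1.36-fold. Lysosomal genes were lower for 13 of 24 and higher for 7 (median -0.16): Hexa, a subunit of hexosaminidase, stood at 384, 405 and 407 CPM and 178, 168 and 169.7 CPM, and the cholesterol exporters Npc1 and Npc2 fell 1.46 and 1.40-fold. Of 22 autophagy genes 6 were higher and 7 lower, so the rise of Sqstm1 was not shared by the list. Lytic death genes were mixed, 3 of 10 higher and 5 lower, with Gsdme, a pore-forming gasdermin, up 2.61-fold, the kinase Ripk1 up 2.27-fold and the inflammatory caspase Casp4 down 2.56-fold. In the BCL2 family, where 4 of 12 were higher and 4 lower, Bcl2 rose from 55.6 ± 0.984 to 97.3 ± 2.05 CPM.

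Where shAD4-1 cells differed from shAD4-2 cells was tested in the same fit. Between them 3777 genes (27.4%) were called, 1933 (14.0%) higher and 1844 (13.4%) lower in shAD4-1. Of the 1683 genes that changed at least 2-fold against control (12.2%), 429 differed. Cell cycle genes lay to one side: 27 of 28 mitotic genes and 27 of 33 replication genes were lower in shAD4-1 than in shAD4-2 cells and none higher, with median log2 differences of -0.42 and -0.35. Aurkb stood at 19.3, 20.4 and 20.9 CPM in shAD4-1 and 25.4, 29.0 and 27.5 CPM in shAD4-2 libraries (log2 difference -0.43, SE 0.068, adjusted p = 0.000153). Of 27 NRF2 and glutathione genes 19 were higher in shAD4-1 and none lower, and of 21 glycolysis genes 11 were higher and none lower. Slc7a11 stood at 401, 406 and 431 CPM in shAD4-1 and 187, 188 and 212 CPM in shAD4-2 libraries (log2 difference 1.08, SE 0.062, adjusted p = 2.50e-09). Among interferon effectors 31 of 44 were higher in shAD4-1 than in shAD4-2 cells, so their fall was smaller with shAD4-1.

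Some genes changed against control and differed from shAD4-2 cells in the same direction, which does not require a change with shAD4-2. Among them was the splicing factor Srsf3, at 81.0, 88.8 and 89.7 CPM in shAD4-1 and 163, 149.5 and 177 CPM in shAD4-2 libraries (log2 difference -0.91, SE 0.058, adjusted p = 7.85e-09). Its control level was 149.8 ± 7.56 CPM, so it fell with shAD4-1 only. Kctd12, a subunit of GABA-B receptor complexes, fell from 78.8 CPM in control cells to 19.4 CPM with shAD4-1 and 33.4 CPM with shAD4-2. The remaining falls of this kind were those of Neurl3, a ubiquitin ligase, the histone gene H2bc4, Npnt, a ligand of integrins, and Ska1 of the spindle, from 23, 11.6, 8.91 and 11.2 CPM in control to 1.41, 3.99, 2.70 and 4.30 CPM. The rises were those of Tspan2, Slc7a11, the guanylyl cyclase subunit Gucy1a1, the small GTPase Rab7b, the estrogen receptor Esr1 and the chloride channel Cftr. The last 4 were low even after their rise, at 6.45, 5.96, 5.15 and 5.69 CPM in shAD4-1 cells.

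**Figure D5:**
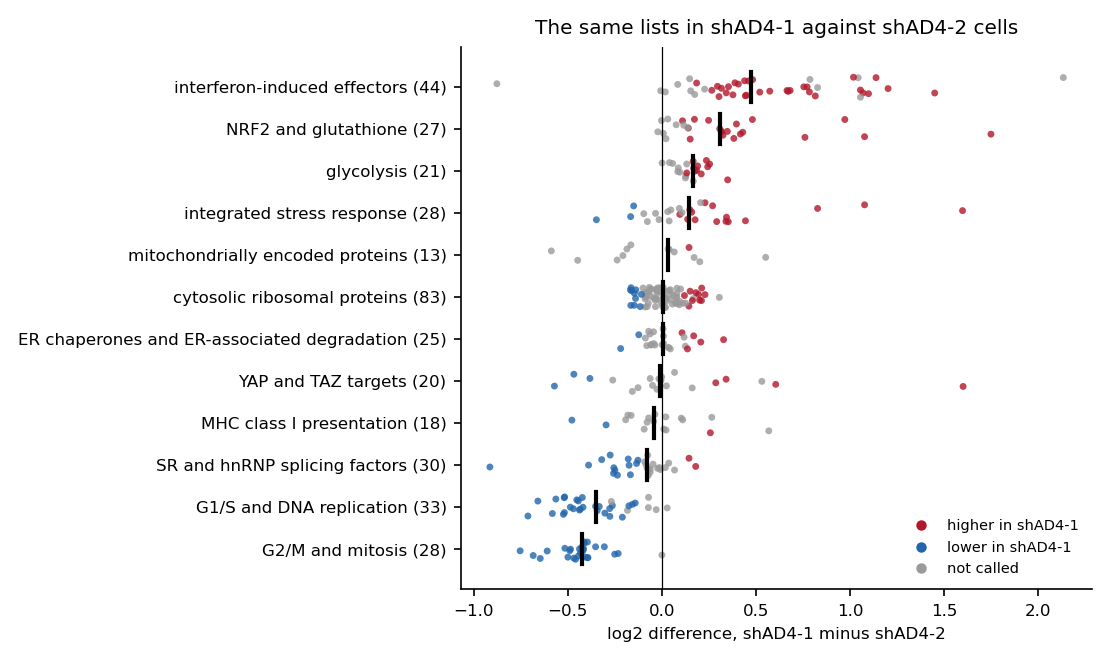
Points are tested members of 12 lists by their log2 difference, shAD4-1 minus shAD4-2, coloured by the test of that difference; black bars are medians and numbers in brackets are tested members. Mitotic and replication genes lie left of 0, NRF2 and glutathione genes and interferon effectors mostly right of it, and mitochondrially encoded genes around it (median 0.03).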

How the data were processed

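The 9 libraries were made from total RNA of B16 cells. Per the labels' protocols the VAHTS Universal V6 RNA-seq kit was used, and reads were handled with fastp, HISAT2 and HTSeq on GRCm39, per the submitters' processing notes, which name no versions. The authors deposited read counts per gene for 21676 genes, and a second table of FPKM values with the same rows and columns, per the file headers. Columns named KD1 in the headers were matched to shAD4-1. Overlapping and antisense genes cannot be told apart, since use of strand in counting is not given in the sources used here. Labels name no batch.

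Counts were tested with edgeR 4.0.16 (R 4.3.3): filterByExpr, TMM factors, glmQLFit and glmQLFTest over all 9 libraries with group as the only term, the contrast of shAD4-1 with control, and Benjamini-Hochberg adjustment over 13807 genes, which held 99.968% of reads. CPM are TMM-scaled. An SE is the log2 fold change over the square root of F.

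The members and the 53 gene lists were chosen with earlier results of these data known. Named genes passed the threshold of 0.05, did not overlap between groups and had at least 5 CPM in the higher group. They were the 15 largest rises and falls, the 12 largest CPM gains and losses of at least 1.5-fold, and up to 6 genes of smallest adjusted p per list and up to 3 against its median. A further 6 each way also differed from shAD4-2 in the same direction. Ccn1, Ccn2, Ankrd1, Yap1, Gnas, Vegfa and Mitf were always included. Lists are described by counts and medians, without a test. A few genes are not reported here and were left out of their lists.

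Alternatives were DESeq2 1.42.0, RLE scaling, upper-quartile scaling, other filters, the 6 libraries only, a replicate block, each library left out, glmTreat at 1.5-fold, limma 3.58.1 on log2(FPKM + 1) and log2(FPKM + 0.1), no mitochondrially encoded genes, and centring per chromosome. The analysis was tested on simulated counts.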

Additional observations from a re-analysis of the deposited data

Results flagged for a closer look

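The results below come from the 405 named genes only. They were called against control and differed at least 2-fold between shAD4-1 and shAD4-2 cells under the same control. That difference passed edgeR's test of it at a p under 0.05, adjusted over all genes. Unnamed genes were not searched, and some named genes were chosen for this same difference. The make-up of the set therefore describes that choice. Values are log2 differences, shAD4-1 minus shAD4-2. Interferon-related genes that fell less with shAD4-1 were Ifi203 (2.01), Mndal (1.65), Trim30d (1.58), Ifi44 (1.45), Trim30a (1.37), Apol9b (1.33), Dhx58 (1.25), Oasl2 (1.20), Oas1a (1.14), Ifit3 (1.10), Oas2 (1.07) and Ddx60 (1.03). Gsta4, the glutathione transferase, also fell less (1.75), from 13.8 CPM in control cells to 1.15 CPM with shAD4-1 and 0.338 CPM with shAD4-2. Slc7a11 (1.08), Gucy1a1 (1.19), Rab7b (1.08) and Esr1 (1.06) rose more with shAD4-1. Neurl3, a ubiquitin ligase, fell more with shAD4-1 (-1.06). These 12 interferon-related genes ranged from 0.362 (Mndal) to 22.2 CPM (Ifit3) with shAD4-1 and from 0.114 to 10.3 CPM with shAD4-2, against 56.1 and 381 CPM in control for these 2 genes.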

How the results depend on the processing

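Among the genes named by the rules, none that was called in the main or the alternative run changed direction in any rerun that tested it. Genes named after their values were seen were not covered. Centring per chromosome was applied to list medians only. For lists only members called in the direction of the main median were counted, so these counts could not show a reversal. With a 1.5-fold minimum built into the test (glmTreat), 2060 genes passed against control, 1112 higher and 948 lower, and 50 against shAD4-2. The list counts then fell to 7 higher genes of ER folding, 14 of the integrated stress response, 7 of NRF2, 10 of replication, 8 YAP targets and 4 nuclear respiratory genes, and to 8 lower ribosomal proteins. This test asks for a larger change. On log2(FPKM + 1) with limma and at least 1 FPKM, 478 genes changed 2-fold, 201 higher and 277 lower. The counts were 805, 339 and 466 with log2(FPKM + 0.1), and 480, 201 and 279 with log2(FPKM + 1) and no minimum. A pseudocount shrinks the fold of low genes. Leaving out each library in turn gave 8372 to 9206 called genes (4258 to 4719 higher, 4050 to 4487 lower), 1643 to 1756 at 2-fold (820 to 894 higher, 801 to 896 lower), and 2785 (without shAD4-1 replicate 2) to 4937 (without control replicate 1) against shAD4-2, where the cause was not tested. Of 405 named genes, 4 missed the threshold without control replicate 3, 1 without shAD4-1 replicate 2 and 1 without shAD4-1 replicate 3, and 185 under glmTreat. With limma on FPKM, 2 of 395 missed it with either pseudocount at a minimum of 1 FPKM, and 5 of 405 with no minimum. Same-numbered libraries did not deviate together (r of -0.034, -0.027 and -0.011 between control and shAD4-1). Whether the numbers pair the samples cannot be told from this, since deviations from the means of so few libraries are tied to each other. With the replicate number as a block 8833 genes were called, 1667 at 2-fold and 3511 against shAD4-2. The median of the BCL2 list turned from -0.06 to 0.05 with chromosomes centred, and that of the autophagy list from 0.01 to -0.01 with upper-quartile scaling. Genes under a few reads per library limit every fold from near silence.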

Other observations

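The gene ontology terms attached to the deposited table were ranked by the median log2 fold change of their tested genes, for 2161 terms of 15 to 400 genes, as a description with no test. Beside the interferon terms at the low end, where cellular response to interferon-beta had a median of -2.82 with 28 of 36 genes lower and 5 higher, the high end held groups that mostly have no list above. Negative regulation of ossification had 13 of 21 genes higher and 3 lower (median 0.77) and regulation of bone mineralization 14 of 20 higher and 2 lower (median 0.60). Voltage-gated potassium channel activity had 9 of 16 higher and 1 lower (median 0.47). The collagen trimer, with 16 of 25 higher and 2 lower (median 0.69), and the protein folding chaperones that use ATP, with 18 of 22 higher and 2 lower (median 0.52), have members in lists described above. Terms overlap in their genes, as Notch1 and Tgfb1 both count for the ossification term.

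Chromosomes differed in the balance of rises and falls, by names matched to the RefSeq table of GRCm38.p6 for 13175 of the tested genes. On chromosome 10, 366 of 690 genes were higher and 113 lower (median log2 fold change 0.24), and on chromosome 17, 294 of 646 were higher and 148 lower (median 0.15). On chromosome 18, 71 of 340 were higher and 164 lower (median -0.17), and on chromosome 12, 111 of 476 were higher and 216 lower (median -0.17). The other 16 chromosomes listed had medians from -0.12 to 0.09. Plagl1, described above for its rise, lies on chromosome 10. DNA was not measured in these libraries.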
